A study of Mus musculus with 2 samples.

Results

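The genes of the BMP and TGF-beta pathway were followed through the boundary cap lineage of the mouse embryo. The list of 38 genes, matched by symbol, was taken from the 33207 genes counted. It holds 11 ligands, 1 protease (*Bmp1*), 10 receptors and co-receptors, 8 Smads, 4 Id targets and 4 secreted antagonists. Among the cells kept, 37 of the 38 genes had at least 1 molecule at E11.5 and all 38 had one at E12.5.

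The data are 2 single-cell RNA sequencing libraries. Each came from the pooled Tomato+ cells of 1 litter, 1 collected at E11.5 and the other at E12.5, and all embryos were *Egr2-Cre/+; R26-Tomato*. No mutant, no treatment and no second litter entered the comparisons, so both stages share the *Egr2* (*Krox20*) Cre driver and the reporter. In this design Cre is active where *Egr2* is expressed, which includes the boundary cap cells at nerve exit and entry points, and the label is then permanent. Meninges, dorsal root ganglia (DRGs) and nerve roots were dissected together and Tomato+ cells were sorted by flow cytometry. The labels call the cells boundary cap cells, but *Prss56* or *Egr2*, the boundary cap markers, had a molecule in 155 of 343 E11.5 glia and 452 of 1113 E12.5 glia. With 1 library per stage, stage, litter and library cannot be told apart, and no p-value is given. Intervals cover counting error only.

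After filtering, 833 cells with a median of 11601 UMIs (unique molecular identifiers, that is counted RNA molecules) were kept at E11.5, and 3496 cells with a median of 6140 UMIs at E12.5. The 2 libraries shared 9 cell barcodes, 7 of them among the kept cells. Cells were classed by 3 genes that are not in the pathway list. Glia had *Sox10* without *Neurog1* or *Isl1* (343 in the E11.5 library and 1113 in the E12.5 library), and progenitors had *Neurog1* without *Isl1* (77 and 142). Nascent neurons had both *Neurog1* and *Isl1* (204 and 502), and neurons had *Isl1* without *Neurog1* or *Sox10* (60 and 905). Non-neural cells were the cells of clusters named for a type outside the neural lineage (61 and 259). Levels are given as CPM, the UMIs of a gene per 1000000 UMIs summed over a class, with an exact Poisson 95% interval in brackets.

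Glia and neurons carried the markers of their names. Summed over 13 glial markers, glia stood at 3634 CPM at E11.5 and 6233 CPM at E12.5, against 546 and 374 CPM in neurons. Over 19 neuronal markers, neurons stood at 15062 and 16532 CPM, against 396 and 479 CPM in glia. The glial list holds *Sox10* and the neuronal list *Isl1*, so part of each difference was set by the gates. Progenitors stood at 3209 and 5840 CPM of glial markers and at 552 and 1169 CPM of neuronal markers. A gate on 1 molecule is loose, and 14 of 60 E11.5 neurons and 51 of 905 E12.5 neurons fell outside the neuron-like clusters. All 14 lay in glia-like clusters, as did 31 of the 51, and the other 20 lay in an unnamed E12.5 cluster led by *Dll1*. *Id3* is therefore given with and without the neurons outside neuron-like clusters. Exactly 1 *Neurog1* molecule was found in 49 of 77 progenitors and 50 of 204 nascent neurons at E11.5. In E12.5 cells the counts were 102 of 142 and 320 of 502. Of the nascent neurons, 38 of E11.5 and 20 of E12.5 lay in glia-like clusters. These 2 classes are thus loosely gated as well. The non-neural cells at E11.5 were 1 pericyte-like cluster, whereas at E12.5 they were 185 mesenchymal-like cells, 38 pericyte-like cells and 36 myeloid-like cells. All 9 endothelial markers were over 3 UMIs in the non-neural cells of both stages, with a sum of 895 CPM at E11.5 and 283 CPM at E12.5.

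BMPs and TGF-betas are secreted dimers that bind pairs of type I and type II receptor kinases. The activated type I receptor phosphorylates receptor Smads, which enter the nucleus with Smad4, and Id genes are classical targets of the BMP branch. Id proteins bind basic helix-loop-helix factors and block differentiation, and in the peripheral nervous system BMPs from the dorsal aorta are known for inducing sympathetic neurons from neural crest.

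Among the Id genes, *Id3* and *Id2* were high in glia and progenitors and several-fold lower in nascent neurons and neurons at both stages. *Id1* followed another order, with its highest level in nascent neurons at E11.5 and in progenitors at E12.5. *Id4* was sparse in every class. The bases just upstream of *Id2* and *Id3* are shown because these genes were low together in neurons, and those of *Tgfb2* because its level went the other way. Each line gives the 250 bases before the transcript start in RefSeq (GRCm38.p6), 5′ to 3′ on the strand of the gene, with capitals marking GGCGCC, a motif described for BMP Smads, and GTCT or its reverse complement AGAC, the core Smad box.

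*Id2* (chr12:25096093-25096342, minus strand): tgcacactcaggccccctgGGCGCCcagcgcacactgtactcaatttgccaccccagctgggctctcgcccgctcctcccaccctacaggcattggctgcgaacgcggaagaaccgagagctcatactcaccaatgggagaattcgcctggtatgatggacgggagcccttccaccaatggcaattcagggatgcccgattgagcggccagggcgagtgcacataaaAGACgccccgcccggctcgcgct
*Id3* (chr4:136143572-136143821, plus strand): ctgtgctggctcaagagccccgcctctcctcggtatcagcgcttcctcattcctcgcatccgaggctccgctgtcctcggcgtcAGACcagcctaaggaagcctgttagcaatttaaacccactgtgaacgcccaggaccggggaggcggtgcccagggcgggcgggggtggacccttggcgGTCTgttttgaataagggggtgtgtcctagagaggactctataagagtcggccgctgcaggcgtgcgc
*Tgfb2* (chr1:186705990-186706239, minus strand): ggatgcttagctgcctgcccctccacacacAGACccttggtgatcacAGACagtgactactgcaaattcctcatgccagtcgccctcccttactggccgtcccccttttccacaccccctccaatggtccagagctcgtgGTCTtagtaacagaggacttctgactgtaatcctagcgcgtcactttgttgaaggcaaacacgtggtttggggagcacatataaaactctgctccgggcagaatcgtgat

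The *Id2* window held 1 GGCGCC and 1 GTCT or AGAC, the *Id3* window 0 and 2, and the *Tgfb2* window 0 and 3. None of the 3 windows held the palindrome GTCTAGAC. Over all 32851 windows of the same length, 9.59% held GGCGCC, 82.9% held GTCT or AGAC and 0.167% held GTCTAGAC, counting both strands. Of the pathway list, 27 genes could be matched to a window, *Id1* not among them. A match describes these letters and does not show that a Smad binds there.

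*Id3* stood at 892 CPM (864 to 921) in glia, 744 (691 to 799) in progenitors, 101 (88.9 to 114) in nascent neurons, 125 (99.3 to 156) in neurons and 667 (601 to 739) in non-neural cells at E11.5. In E12.5 cells the same classes stood at 946 (924 to 969), 696 (645 to 749), 81.9 (72.7 to 92), 54.8 (49.1 to 61) and 562 (526 to 599) CPM. Glia, progenitors and non-neural cells formed the high group at both stages, and no interval of that group met one of the neuronal classes. The neuronal level was thus 7.13-fold below glia at E11.5 (5.71 to 9.01) and 17.3-fold below at E12.5 (15.5 to 19.3). Most of the remaining signal in neurons came from the cells outside neuron-like clusters, which at E11.5 all lay in glia-like clusters. At E11.5 these 14 cells held 75 of the 80 *Id3* UMIs, at 920 CPM (724 to 1153), and the other 46 neurons stood at 8.97 CPM (2.91 to 20.9). At E12.5 the 51 cells held 190 of 336 UMIs, at 673 CPM, and the other 854 neurons stood at 25.0 CPM (21.1 to 29.4). Restricted to cells whose gate and cluster both said glia or neuron, the neuron-to-glia ratio of *Id3* was 0.0101 at E11.5 and 0.0261 at E12.5.

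*Id2* showed the same division among the neural classes but was also low outside the lineage. It stood at 155 CPM (143 to 168) in glia, 135 (113 to 160) in progenitors, 43.4 (35.7 to 52.3) in nascent neurons, 50.1 (34.2 to 70.7) in neurons and 23.4 (12.4 to 40) in non-neural cells at E11.5. In E12.5 cells the levels were 226 (215 to 238), 197 (170 to 226), 59.2 (51.4 to 67.9), 38.5 (33.7 to 43.7) and 65.4 (53.7 to 79) CPM. Neurons were below glia 3.10-fold at E11.5 (2.17 to 4.57) and 5.88-fold at E12.5 (5.12 to 6.77). Non-neural cells were below glia 6.64-fold (3.86 to 12.5) and 3.46-fold (2.85 to 4.24). At E11.5 nascent neurons and neurons could not be told apart by their intervals.

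*Id1* was not at its highest in glia. At E11.5 it stood at 46.4 CPM (40.1 to 53.5) in glia, 81.6 (64.8 to 101) in progenitors, 106 (94.1 to 120) in nascent neurons, 39.1 (25.3 to 57.7) in neurons and 82.7 (60.6 to 110) in non-neural cells. At E12.5 it stood at 68.5 (62.5 to 74.9), 164 (140 to 191), 100.02 (89.8 to 111), 37.7 (33 to 42.9) and 79.3 (66.3 to 94.2) CPM. Progenitors were 2.39-fold above glia at E12.5 (1.99 to 2.86), and at E11.5 the ratio was 1.76 (1.34 to 2.29). Nascent neurons were above glia at both stages, 2.29-fold (1.90 to 2.77) and 1.46-fold (1.27 to 1.68). From nascent neurons to neurons the ratio was 0.368 (0.234 to 0.555) at E11.5 and 0.377 (0.318 to 0.446) at E12.5. *Id1* and *Id3* thus differed in which neural class was highest. *Id4* stayed between 0.391 and 6.95 CPM in all classes, with 1 to 37 UMIs per class, and was 3.58-fold lower in neurons than in glia at E12.5 (1.70 to 8.44). That value became 6.40-fold with whole clusters and 9.69-fold when cells were thinned to 2000 UMIs. Neither alternative value has an interval, and thinning leaves still fewer UMIs of this sparse gene.

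**Figure D1:**
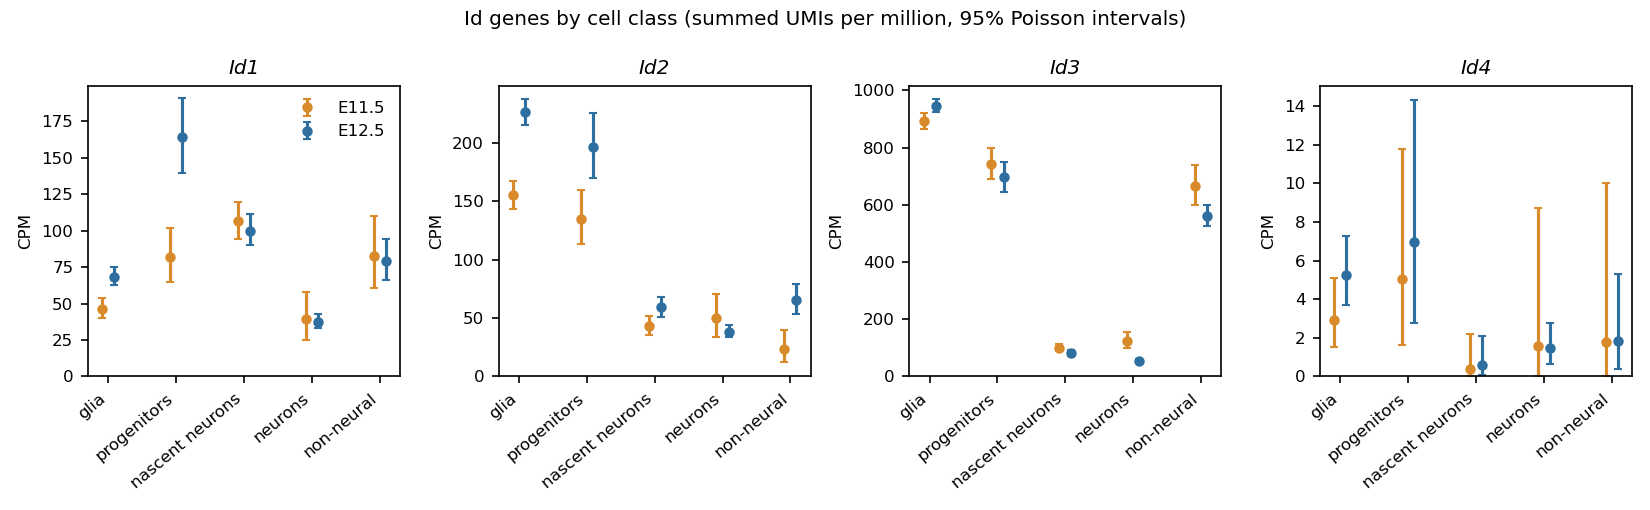
Levels of the 4 Id genes in CPM (vertical axis, from 0, a separate scale per gene) in 5 cell classes at E11.5 (orange) and E12.5 (blue); points are sums over the class in 1 library and bars are exact Poisson 95% intervals. *Id2* and *Id3* drop between progenitors and nascent neurons, *Id3* from 744 to 101 CPM at E11.5 and from 696 to 81.9 CPM at E12.5, while *Id1* peaks in nascent neurons at E11.5 (106 CPM) and in progenitors at E12.5 (164 CPM).

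Counted by cell, the picture was the same. After every cell was thinned to 2000 UMIs, *Id3* had a molecule in 75.8% of glia (260 of 343, 95% Clopper-Pearson interval 70.9 to 80.2) and in 10.8% of nascent neurons (22 of 204, 6.88 to 15.9) at E11.5. At E12.5 the shares were 74.1% of glia (798 of 1077, 71.4 to 76.7) and 12.0% of nascent neurons (59 of 492, 9.26 to 15.2). The share of neurons at E12.5 was 8.97% (78 of 870, 7.15 to 11.1), and the share that free RNA alone would give was not measured. Thinning left out 36 of 1113 glia, 10 of 502 nascent neurons and 35 of 905 neurons at E12.5 and none at E11.5. Without thinning the *Id3* shares were 94.8% of glia and 32.4% of nascent neurons at E11.5, at median depths of 12264 and 12224 UMIs, and 90.4% and 26.3% at E12.5, at 5920 and 6518 UMIs. Among thinned glia *Id2* and *Id3* were found together in 15.5% of cells at E11.5 (53 of 343) and 26.2% at E12.5 (282 of 1077), where the product of their separate shares was 15.2% and 24.0%.

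In the neural classes the ligands followed below were *Bmp7*, *Tgfb2*, *Tgfb3* and *Gdf11*, a growth factor of the activin branch. *Bmp7* had its highest neural level in glia and *Tgfb2* in nascent neurons. Other ligands were not absent there. In their highest glia-like clusters of E11.5, *Tgfb1* stood at 5.40 CPM (1.98 to 11.8) and *Bmp5* at 13.3 CPM (3.64 to 34.2). *Bmp2*, *Bmp4*, *Bmp5* and *Tgfb1* were highest in the non-neural cells at both stages. At E12.5 *Bmp6*, *Bmp7* and *Tgfb3* were highest there too. *Inhba* and *Inhbb*, which encode activin subunits, had at most 3 UMIs in any class.

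*Bmp7* stood at 41.6 CPM (35.6 to 48.3) in glia, 39.3 (27.9 to 53.7) in progenitors, 19.2 (14.2 to 25.3) in nascent neurons, 10.95 (4.4 to 22.6) in neurons and 10.8 (3.96 to 23.5) in non-neural cells at E11.5. In the E12.5 library it stood at 49.6 (44.5 to 55.1), 24.8 (16.1 to 36.6), 7.19 (4.65 to 10.6), 2.61 (1.49 to 4.24) and 164 (145 to 184) CPM. It was lower in each class from glia to neurons at E12.5, and 3.79-fold (1.80 to 9.58) and 19.0-fold (11.54 to 33.6) lower in neurons than in glia at the 2 stages. Of its 7 UMIs in E11.5 neurons, 6 lay in the 14 cells outside neuron-like clusters. The progenitor-to-glia ratio of *Bmp7* was 0.945 (0.650 to 1.35) at E11.5 and 0.5004 (0.319 to 0.751) at E12.5, the latter just above the limit of a 2-fold difference.

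*Tgfb2* was highest in nascent neurons. At E11.5 it stood at 13.4 CPM (10.1 to 17.4) in glia, 29.2 (19.6 to 42) in progenitors, 84.0 (73.2 to 96.1) in nascent neurons, 39.1 (25.3 to 57.7) in neurons and 28.8 (16.4 to 46.7) in non-neural cells. At E12.5 the levels were 12.9 (10.4 to 15.9), 54.6 (41.1 to 71.1), 86.2 (76.7 to 96.6), 29.0 (24.9 to 33.6) and 48.5 (38.4 to 60.3) CPM. The order of the neural classes was the same at both stages except that progenitors and neurons changed places, and at E11.5 their intervals overlapped. Nascent neurons exceeded glia 6.29-fold (4.66 to 8.62) and 6.67-fold (5.26 to 8.53). Neurons exceeded glia 2.93-fold (1.75 to 4.78) and 2.25-fold (1.73 to 2.92), and progenitors did so 2.19-fold (1.34 to 3.49) and 4.22-fold (2.96 to 5.97). With cells thinned to 2000 UMIs the progenitor-to-glia ratio at E11.5 was 0.742, without an interval, so its direction did not hold there. Few UMIs remain after thinning, and 4 of the pathway genes could be tested in that comparison.

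*Gdf11* was 4.63-fold higher in neurons than in glia at E11.5 (2.59 to 8.16), at 36.0 against 7.78 CPM, and 3.82-fold higher at E12.5 (2.73 to 5.43), at 25.0 against 6.54 CPM. *Tgfb3* differed less among neural classes, from 4.86 CPM in glia to 16.0 in nascent neurons at E11.5, and from 9.93 in progenitors to 15.5 in nascent neurons at E12.5. *Bmp1*, a metalloprotease that processes procollagen and the antagonist chordin, was higher in neurons than in glia 2.38-fold (1.59 to 3.48) and 2.64-fold (2.23 to 3.13). Its neuronal level was 59.5 CPM (42.1 to 81.6) at E11.5 and 75.7 (69 to 82.9) at E12.5.

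Among the non-neural cells the ligands belonged to different types at E12.5. *Bmp4* had 89 of its UMIs in mesenchymal-like cells (81.2 CPM, 65.2 to 99.9), 1 in pericyte-like and 0 in myeloid-like cells. *Bmp7* had 269 UMIs in mesenchymal-like cells (245 CPM, 217 to 277), 1 in pericyte-like and 0 in myeloid-like cells, and *Bmp6* had 40, 0 and 0. *Bmp5* was alike in mesenchymal-like cells (73.9 CPM, 58.7 to 91.8) and pericyte-like cells (81.4, 50.4 to 124) and had 0 UMIs in myeloid-like cells. The other group of ligands was highest outside the mesenchymal-like cells. *Bmp2* stood at 17.3 CPM (10.4 to 27.1) in mesenchymal-like cells, 81.4 (50.4 to 124) in pericyte-like cells and 94.4 (62.7 to 136) in myeloid-like cells. *Tgfb1* stood at 21.9 (14 to 32.6), 132 (91.3 to 184) and 299.9 CPM (241 to 369) in the same order, and *Tgfb3* at 14.6 (8.34 to 23.7), 128 (88.1 to 180) and 0 CPM. *Tgfb2* in pericyte-like cells, at 109 CPM (72.1 to 157), was 2.33-fold above mesenchymal-like cells.

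The pericyte-like cells of E11.5 had *Tgfb1* at 234 CPM (195 to 278), *Bmp5* at 52.1 (34.9 to 74.9) and *Bmp4* at 23.4 (12.4 to 40). Among these 61 cells, 18 had 3 or more endothelial genes. *Tgfb1* was at 265 CPM (203 to 340) in those 18 cells and at 211 CPM (164 to 267) in the other 43, so the intervals of the 2 sets of cells overlapped, and cells with 1 or 2 endothelial genes are among the 43. *Bmp4* had 1 of its 13 UMIs in the 18 cells.

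**Figure D2:**
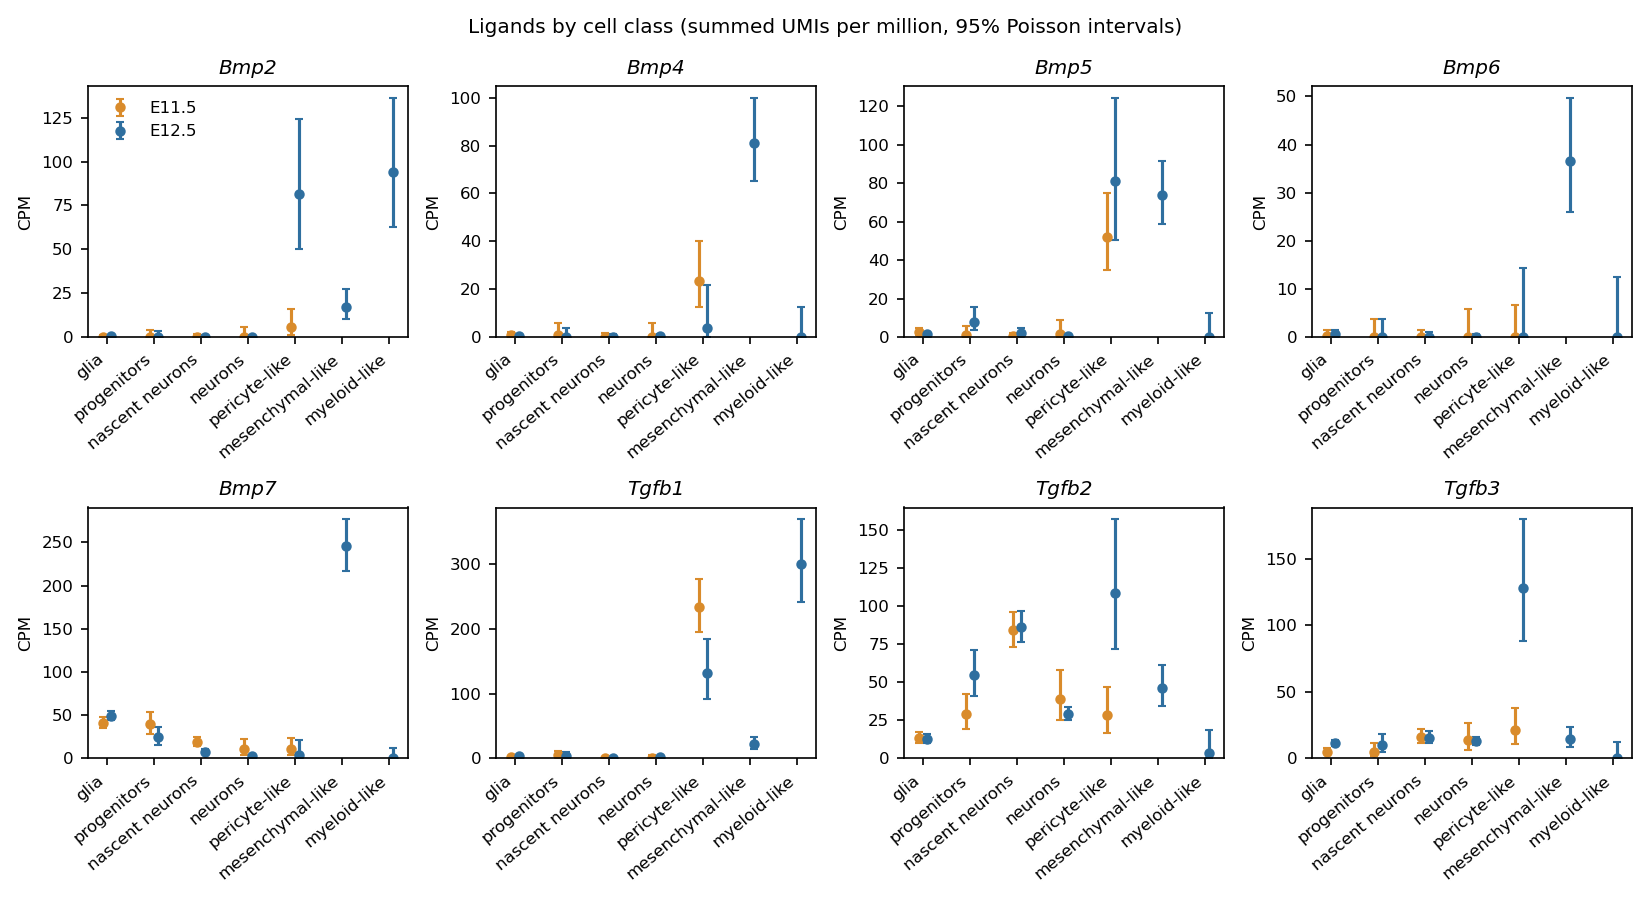
Levels of 8 ligands in CPM (vertical axis, from 0, a separate scale per gene) in the 4 neural classes and the 3 non-neural types at E11.5 (orange) and E12.5 (blue); points are sums over a class and bars exact Poisson 95% intervals, and mesenchymal-like and myeloid-like cells formed clusters only at E12.5. *Bmp4*, *Bmp6* and *Bmp7* peak in mesenchymal-like cells (81.2, 36.5 and 245 CPM), *Tgfb1* in myeloid-like cells at E12.5 (299.9 CPM) and *Tgfb2* is high in nascent neurons at both stages (84.0 and 86.2 CPM).

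Receptors were found in all neural classes, and the direction of their difference between neurons and glia depended on the gene. *Bmpr1a* and *Acvr1* (ALK2) encode type I receptors for BMPs. *Bmpr1a* stood at 65.6 CPM (58 to 73.9) in glia, 51.4 (38.3 to 67.6) in progenitors, 58.2 (49.3 to 68.4) in nascent neurons, 45.4 (30.4 to 65.2) in neurons and 34.2 (20.6 to 53.3) in non-neural cells at E11.5. In the E12.5 library it stood at 65.9 (60.1 to 72.2), 70.5 (55.1 to 88.9), 46.3 (39.4 to 54), 34.3 (29.8 to 39.2) and 39.97 (30.9 to 50.9) CPM. The neuron-to-glia ratio was 0.692 (0.454 to 1.02) and 0.519 (0.439 to 0.613), short of 2-fold. *Acvr1* went further in the same direction, from 27.9 CPM (23.1 to 33.5) in glia to 7.82 (2.54 to 18.3) in neurons at E11.5 and from 32.5 (28.5 to 37) to 6.69 (4.8 to 9.07) at E12.5. That is 3.57-fold (1.49 to 11.2) and 4.87-fold (3.48 to 6.96) lower in neurons. Progenitors lay between, at 14.1 and 16.9 CPM. *Bmpr1b*, the other type I BMP receptor, was sparse, with 22 UMIs in glia and 0 in neurons at E11.5, and was 3.24-fold lower in neurons at E12.5 (1.37 to 8.83) and 3.44-fold higher in non-neural cells than in glia (1.84 to 6.36).

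*Tgfbr2* and *Tgfbr3*, which bind TGF-beta, were higher in glia than in neurons. *Tgfbr2*, the type II receptor, stood at 22.8 CPM (18.5 to 28) in glia, 20.2 (12.3 to 31.1) in progenitors, 16.8 (12.2 to 22.6) in nascent neurons and 3.13 (0.379 to 11.3) in neurons at E11.5. At E12.5 the levels were 28.4 (24.6 to 32.6), 19.9 (12.1 to 30.7), 10.9 (7.73 to 15) and 4.73 (3.17 to 6.79) CPM. The order ran down from glia to neurons at both stages, and neurons were 6.01-fold below glia at E12.5 (4.06 to 9.20). With 2 UMIs in E11.5 neurons the ratio there was 0.137 (0.0164 to 0.509). *Tgfbr1* (ALK5), the type I receptor, differed by less than 2-fold in each comparison, with neuron-to-glia ratios of 0.680 (0.400 to 1.09) and 0.572 (0.470 to 0.694).

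*Tgfbr3*, or betaglycan, is a co-receptor that presents TGF-beta2 to the kinases. It stood at 41.1 CPM (35.1 to 47.8) in glia, 19.1 (11.53 to 29.9) in progenitors, 18.4 (13.5 to 24.4) in nascent neurons, 14.1 (6.44 to 26.7) in neurons and 30.6 (17.8 to 48.9) in non-neural cells at E11.5. In the E12.5 library it stood at 84.3 (77.6 to 91.3), 16.9 (9.83 to 27), 24.1 (19.3 to 29.9), 16.8 (13.7 to 20.4) and 69.7 (57.5 to 83.6) CPM. Glia as a class were above all 3 other neural classes, which did not differ from each other beyond their intervals at E11.5. This did not hold for every glia-like cluster. The lowest stood at 11.499 CPM (6.29 to 19.3) at E11.5 and 22.0 CPM (15.3 to 30.6) at E12.5, not above nascent neurons. Neurons were 2.92-fold (1.5003 to 6.49) and 5.02-fold (4.06 to 6.24) below glia, and progenitors 2.15-fold (1.33 to 3.65) and 4.99-fold (3.09 to 8.63).

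Of the type II receptors for BMPs or activins, *Bmpr2* and *Acvr2b* were higher in neurons and *Acvr2a* did not differ beyond counting error. *Bmpr2* stood at 67.3 CPM (59.6 to 75.7) in glia and 127 (101 to 158) in neurons at E11.5, and at 65.7 (59.8 to 71.9) and 93.6 (86.1 to 102) at E12.5, ratios of 1.88 (1.45 to 2.42) and 1.43 (1.26 to 1.62). *Acvr2b* stood at 15.6 CPM (12 to 19.9) in glia and 32.9 (20.3 to 50.2) in neurons at E11.5, and at 11.4 (9.02 to 14.2) and 29.9 (25.7 to 34.5) at E12.5. It was thus 2.11-fold (1.23 to 3.51) and 2.63-fold (2.01 to 3.46) higher in neurons. Its close relative *Acvr2a* did not separate them, with ratios of 0.555 (0.259 to 1.06) and 0.899 (0.729 to 1.11), and was 3.11-fold lower in non-neural cells than in glia at E12.5 (1.87 to 5.54). *Acvr1b* (ALK4), the type I activin receptor, was sparse and was 2.25-fold higher in neurons than in glia at E12.5 (1.39 to 3.73), at 8.65 against 3.84 CPM.

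The Smads also split within each branch. Of the Smads that carry BMP signals, *Smad1* was higher in neurons and *Smad5* was not. *Smad1* stood at 56.6 CPM (49.6 to 64.4) in glia, 45.3 (33.1 to 60.7) in progenitors, 108 (95.9 to 122) in nascent neurons and 139 (112 to 171) in neurons at E11.5. At E12.5 it stood at 48.5 (43.5 to 53.9), 61.6 (47.2 to 78.9), 109 (98.5 to 121) and 148 (138 to 158) CPM. Nascent neurons were already near the neuronal level, and neurons were 2.46-fold (1.90 to 3.15) and 3.05-fold (2.69 to 3.47) above glia. *Smad5* had neuron-to-glia ratios of 0.866 (0.479 to 1.46) and 0.427 (0.313 to 0.576). The E11.5 ratio includes the neurons outside neuron-like clusters. Within those clusters *Smad5* was lower than in the whole class, at levels given below for the stages. *Smad9* had 0 UMIs in the classes at E11.5 and at most 5 in a class at E12.5.

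Of the Smads of the TGF-beta and activin branch, *Smad3* was nearly absent from neurons and *Smad2* was not. *Smad3* stood at 25.3 CPM (20.7 to 30.6) in glia, 22.2 (13.9 to 33.6) in progenitors, 7.82 (4.78 to 12.1) in nascent neurons and 14.4 (6.21 to 28.3) in non-neural cells at E11.5, with 0 UMIs in neurons. Taking 3 counts as the limit that 0 UMIs in neurons allow, glia were at least 5.38-fold higher. At E12.5 the levels were 24.3 (20.8 to 28.2) in glia, 31.8 (21.7 to 44.9) in progenitors, 10.6 (7.49 to 14.7) in nascent neurons, 2.45 (1.37 to 4.04) in neurons and 53.3 (42.7 to 65.7) in non-neural cells. Neurons were 9.93-fold below glia (5.86 to 18.1), and non-neural cells 2.19-fold above (1.68 to 2.85). *Smad2* had neuron-to-glia ratios of 0.571 (0.332 to 0.925) and 0.795 (0.677 to 0.932). *Smad4*, the partner of both branches, had ratios of 1.501 (0.981 to 2.23) and 1.11 (0.910 to 1.36), so it did not differ beyond counting error. Of the inhibitory Smads, *Smad6* was 2.25-fold lower in neurons than in glia at E12.5 (1.26 to 4.21) and *Smad7* had a ratio of 1.32 (0.980 to 1.79).

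**Figure D3:**
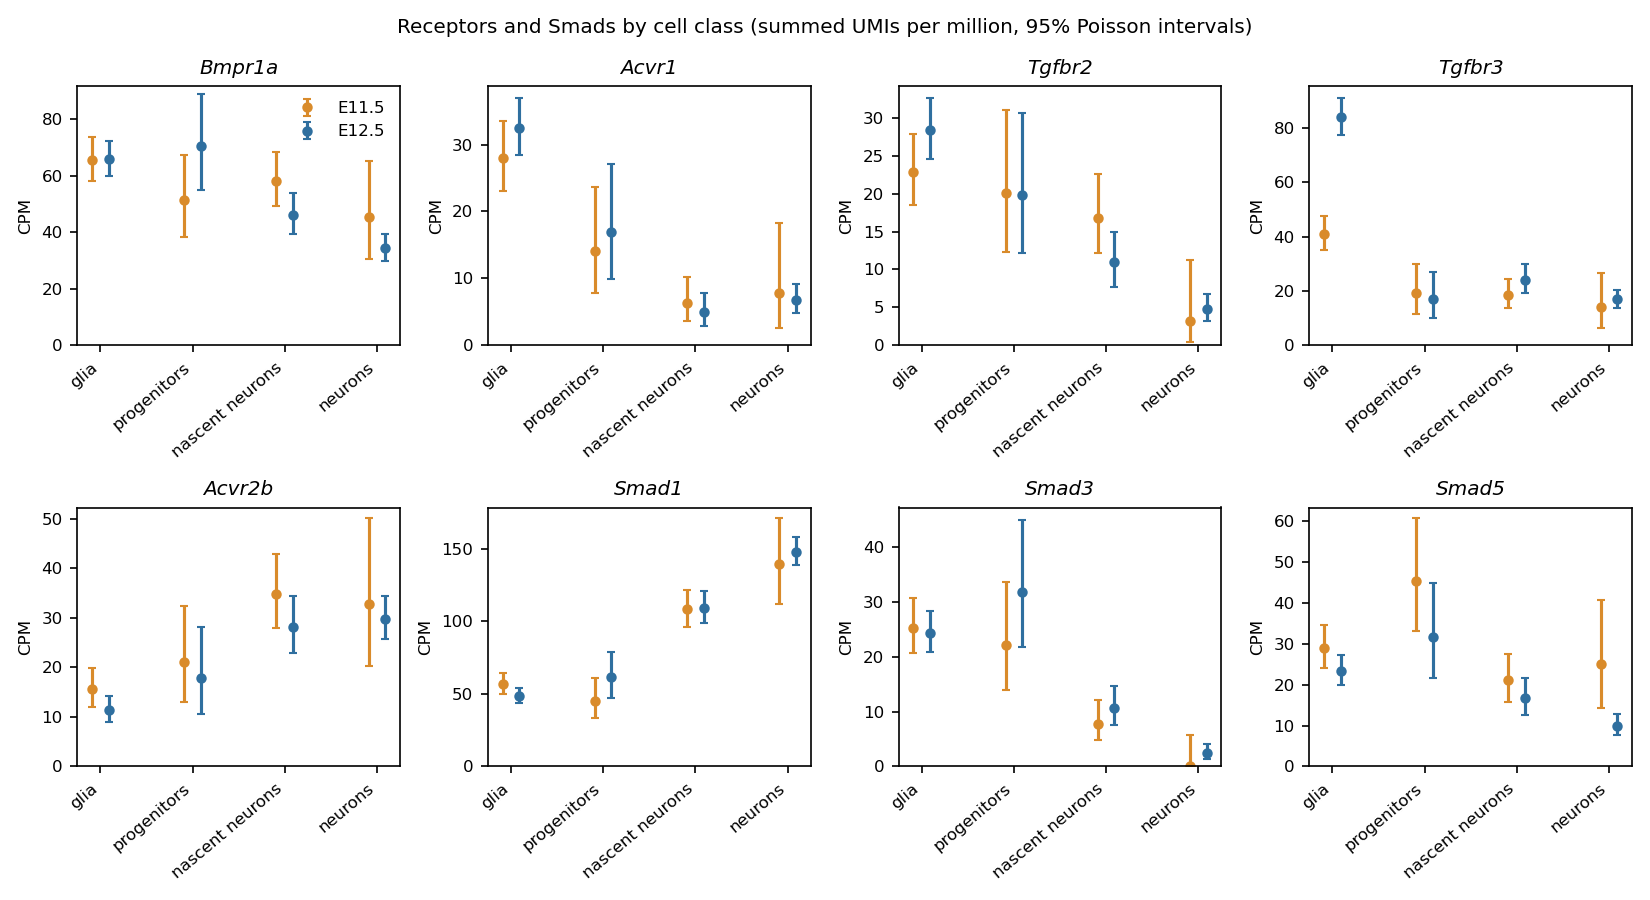
Levels of 5 receptors or co-receptors and 3 Smads in CPM (vertical axis, from 0, a separate scale per gene) in the 4 neural classes at E11.5 (orange) and E12.5 (blue); points are sums over a class and bars exact Poisson 95% intervals. *Acvr1*, *Tgfbr2*, *Tgfbr3* and *Smad3* are lower in neurons than in glia, while *Acvr2b* and *Smad1* are higher, *Smad1* at 139 against 56.6 CPM at E11.5 and 148 against 48.5 CPM at E12.5.

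Secreted antagonists, which bind ligands and keep them from receptors, were sparse. *Nog* and *Grem1* had at most 2 and 10 UMIs in any class. *Fst*, which encodes the activin antagonist follistatin, was 7.19-fold higher in non-neural cells than in glia at E12.5 (3.74 to 14.3), and all 27 of its non-neural UMIs were in mesenchymal-like cells. *Chrd* had 16 UMIs in mesenchymal-like cells and 0 in pericyte-like and myeloid-like cells, and between 0 and 8 UMIs in the neural classes.

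Set against all genes, the list was read with a fixed rule. A gene was tested if its mean CPM would give 10 or more UMIs in the smaller class, and called if its CPM ratio was 2-fold or more. For neurons against glia at E11.5, 18 of the 38 genes were tested, of which 5 were called higher and 5 lower. Among all 7221 genes tested, 11.4% were called higher and 15.1% lower. At E12.5, 27 were tested, of which 6 were called higher and 11 lower, where 13.8% and 22.5% of all 13280 genes tested were. The median log2 ratio of the tested pathway genes was -0.39 at E11.5 and -0.86 at E12.5, beside -0.08 and -0.15 for all genes. Called higher at both stages were *Gdf11*, *Tgfb2*, *Bmp1*, *Acvr2b* and *Smad1*, and called lower at both were *Bmp7*, *Acvr1*, *Tgfbr3*, *Id2* and *Id3*. At E11.5 *Gdf11* and *Acvr1* were so low in glia and in neurons, respectively, that passing the minimum of UMIs already fixed their calls. The same cells of 1 library serve each comparison of that stage, so comparisons with glia share their denominator.

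**Figure D4:**
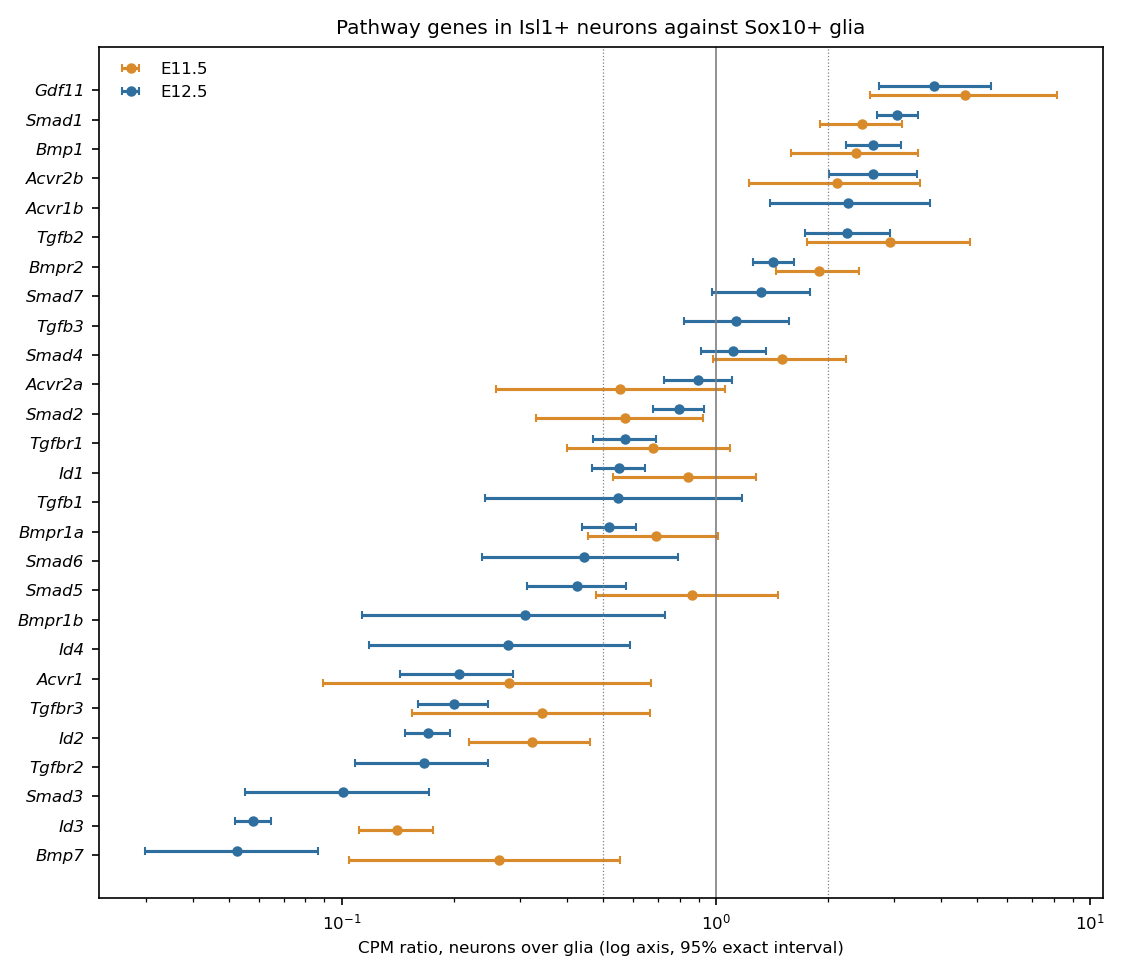
CPM ratio of neurons over glia (horizontal log axis) for the 27 pathway genes tested at E12.5 (blue) and the 18 tested at E11.5 (orange), ordered by the E12.5 ratio; bars are exact conditional 95% intervals, the solid line marks a ratio of 1 and dotted lines 2-fold either way. *Gdf11* (3.82) and *Smad1* (3.05) lie at the top, and *Bmp7*, *Id3* and *Smad3* at the bottom with ratios of 0.0526, 0.0579 and 0.101 at E12.5.

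The wider pathway gave a similar picture in neurons at E12.5. Of 83 other genes of the pathway, 39 were tested there. Of these, 7 (17.9%) were called higher and 19 (48.7%) lower, beside 13.8% and 22.5% of all genes tested. The median log2 ratio of the 39 was -0.81. The largest ratios were those of *Nbl1*, a BMP antagonist, with 21 UMIs in neurons and 1 in glia (24.1-fold, 3.88 to 997), *Nedd4l*, a ubiquitin ligase that acts on Smads (5.59-fold, 4.92 to 6.36), and *Cdkn1a*, a cell cycle inhibitor (5.39-fold, 4.25 to 6.89). Among the lowest were *Msx2*, a BMP target with 0 UMIs in neurons and 30 in glia, at least 8.71-fold lower, *Gata2* with a ratio of 0.0182 (0.00218 to 0.0672) and the antagonist *Sostdc1* with 0.0488 (0.0208 to 0.0982). *Nbl1* in glia and *Msx2* in neurons were so low that they could pass the minimum of UMIs only by being called. The E12.5 counts of the wider pathway were thus partly set by the filter. At E11.5, 21 were tested, of which 5 were called higher, led by *Cdkn1a* (6.44-fold), *Tob1* (4.49-fold) and *Nedd4l* (3.28-fold). The 6 called lower were led by the pseudoreceptor *Bambi* (ratio 0.220), *Fbn2* (0.225) and *Fstl1* (0.279), and the median log2 ratio was 0.15. These calls were 23.8% higher and 28.6% lower, beside 11.4% and 15.1% of all genes tested at E11.5.

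Few pathway genes were called in progenitors, most of which lay in glia-like clusters. At E11.5, 20 were tested and 1 was called higher, *Tgfb2*, and 1 lower, *Tgfbr3*, where 1.32% of all 8350 genes tested were called higher and 2.75% lower. At E12.5, 21 were tested, with *Tgfb2* and *Id1* called higher and *Tgfbr3* lower, where 2.26% and 5.68% of all 8729 were. Without the *Dll1*-led cluster of E11.5 described below for glia, the ratios at E11.5 were 1.92 for *Tgfb2* and 0.559 for *Tgfbr3*, and neither was called. At E12.5 a cluster of 185 cells led by *Dll1* stayed unnamed and held 31 of the 142 progenitors. No fit left out that cluster by itself, so the E12.5 calls were not checked in this way. The medians of the log2 ratio were -0.19 and -0.20, beside -0.04 and -0.06 for all genes. *Id2* and *Id3* in progenitors had ratios of 0.869 (0.716 to 1.05) and 0.833 (0.769 to 0.902) in the E11.5 library, and 0.869 (0.746 to 1.01) and 0.736 (0.680 to 0.795) in the E12.5 library. *Bmpr2* had ratios of 0.778 (0.567 to 1.05) and 1.29 (1.01 to 1.62), and *Smad4* of 1.18 (0.803 to 1.71) and 1.04 (0.682 to 1.53). Of the wider pathway, 22 genes were tested at E11.5 and 0 were called, and 28 were tested at E12.5. There the Notch target *Hey1* was called higher (2.11-fold, 1.61 to 2.73) and 4 were called lower, led by *Gata2* (ratio 0.277), *Pcolce* (0.373) and *Bambi* (0.462).

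Between progenitors and nascent neurons, the next step toward neurons by these gates, *Id3* had ratios of 0.136 (0.117 to 0.157) at E11.5 and 0.118 (0.102 to 0.135) at E12.5. *Id2* had ratios of 0.321 (0.248 to 0.416) and 0.301 (0.247 to 0.368). *Tgfb2*, by contrast, was 2.88-fold (1.95 to 4.40) and 1.58-fold (1.18 to 2.15) higher in nascent neurons, and *Smad1* 2.39-fold (1.74 to 3.35) and 1.77-fold (1.35 to 2.36). From nascent neurons to neurons *Tgfb2* then had ratios of 0.465 (0.295 to 0.706) and 0.337 (0.278 to 0.407). The classes are gated cells of 1 moment, so this order is one of classes and was not followed in time.

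Non-neural cells were set against glia by the same rule. At E11.5, 20 of the list were tested, with *Bmp5* (21.5-fold, 10.2 to 49.3), *Tgfb1* (107-fold, 54.6 to 239) and *Tgfb2* (2.15-fold, 1.15 to 3.81) called higher than in glia and *Bmp7* and *Id2* called lower, where 13.7% of all 6915 genes tested were called higher and 10.2% lower. At E12.5, 29 were tested and 11 were called higher and 2 lower (*Acvr2a* and *Id2*), where 14.0% of all 10874 were called higher and 9.28% lower. The 11 were *Bmp2* (145-fold, 38.6 to 1221, on 68 against 2 UMIs), *Bmp4* (128-fold, 42.4 to 632, on 90 against 3), *Bmp5* (39.5-fold, 21.2 to 81.7), *Bmp6* (42.6-fold, 15.4 to 164), *Bmp7* (3.30-fold, 2.80 to 3.88), *Tgfb1* (27.2-fold, 17.5 to 44.3), *Tgfb2* (3.75-fold, 2.74 to 5.12), *Tgfb3* (2.61-fold, 1.79 to 3.77), *Bmpr1b*, *Smad3* and *Fst*. Of the 11, *Bmp2*, *Bmp4*, *Bmp5*, *Bmp6*, *Tgfb1*, *Bmpr1b* and *Fst* were so low in glia that they could pass the minimum of UMIs only by being called. The same held for *Bmp5* and *Tgfb1* at E11.5, and for *Bmp7* there, which was low in non-neural cells, so these counts were partly set by the filter. The median log2 ratio was -0.42 at E11.5 and 0.36 at E12.5, beside -0.04 and 0.01 for all genes.

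In non-neural cells at E11.5, where 13.7% of all genes tested were called higher and 10.2% lower, 28 genes of the wider pathway were tested. Of these, 13 (46.4%) were called higher and 2 (7.14%) lower. Among the highest were *Eng* and *Lrrc32*, with 69 and 51 UMIs in non-neural cells and 0 in glia, at least 170-fold and 126-fold higher. *Eng*, or endoglin, is also a gene of endothelial cells, and the endothelial markers of the cluster are given above. Their part in these values was not tested. *Nedd4l* (ratio 0.142) and *Rgmb* (0.368) were lower. At E12.5, 37 were tested, 14 higher and 4 lower, among them *Lrrc32* (0 UMIs in glia, at least 38.4-fold higher), *Nbl1* (1564-fold, 279 to 61943, on 367 against 1 UMIs) and *Tgfbi* (108-fold, 45.2 to 339), and lower *Sostdc1* (ratio 0.0227), *Hey1* (0.0334) and *Gata2* (0.0338). Genes as low in glia as *Eng*, *Lrrc32* and *Nbl1* could pass the minimum of UMIs only by being called. The counts of both stages were thus partly set by the filter. At E12.5 they were 37.8% higher and 10.8% lower, beside 14.0% and 9.28% of all genes tested.

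Between the stages, 7.41% of the tested pathway genes were called higher in glia, near the 7.46% of all genes tested. In neurons 13.3% were called lower, beside 2.16% of all genes, but this share is 2 of 15 genes. In glia, 27 were tested and 2 were called higher at E12.5, *Tgfb3* (2.34-fold, 1.42 to 4.03) and *Tgfbr3* (2.05-fold, 1.73 to 2.45), and 0 lower, where 7.46% of all 11963 genes tested were called higher and 1.73% lower. All genes together had a median ratio of 1.07, and relative to it *Tgfbr3* was under the limit. With a minimum of 5000 UMIs per cell neither *Tgfb3* nor *Tgfbr3* was called. *Id1*, *Id2* and *Id3* in glia had ratios of 1.48 (1.25 to 1.75), 1.46 (1.33 to 1.60) and 1.06 (1.02 to 1.10). In neurons, 15 were tested and 0 were called higher and 2 lower, *Id3* (ratio 0.438, 0.342 to 0.566) and *Smad5* (0.397, 0.226 to 0.739), where 2.85% of all 6848 were called higher and 2.16% lower. *Smad5* was so low in E12.5 neurons that passing the minimum of UMIs already fixed its call. Both calls rest on the 14 neurons of E11.5 outside neuron-like clusters. Within neuron-like clusters *Id3* was at 8.97 CPM (2.91 to 20.9) at E11.5 and 25.0 (21.1 to 29.4) at E12.5, the other way round, and *Smad5* was at 12.6 (5.05 to 25.9) and 7.87 (5.76 to 10.5). The medians of the log2 ratio were 0.08 in glia and -0.38 in neurons, beside 0.10 and 0.04 for all genes. Of the wider pathway 6 of 38 tested were called higher in glia at E12.5, led by *Sostdc1* (4.23-fold), *Gata2* (3.88-fold) and *Tob1* (3.06-fold), and *Mstn* (0.214) and *Thbs1* (0.430) were lower, while in neurons 1 of 19 was called, *Fbn2* (0.346).

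Within the glia, the boundary cap markers split some of the pathway. Glia with *Prss56* or *Egr2* had more *Tgfbr2*, at 28.9 CPM (22.1 to 37.1) against 16.5 (11.3 to 23.1) in the other glia at E11.5 and 44.3 (36.9 to 52.6) against 17.4 (13.6 to 21.9) at E12.5, ratios of 1.75 (1.13 to 2.76) and 2.55 (1.90 to 3.45). At E12.5 they also had more *Bmp7* (1.75-fold, 1.41 to 2.18), *Bmp1* (1.78-fold, 1.34 to 2.38) and *Acvr1* (1.55-fold, 1.19 to 2.03), none of which differed beyond counting error at E11.5. *Id1* (0.726, 0.597 to 0.880), *Id2* (0.881, 0.795 to 0.976), *Id3* (0.857, 0.815 to 0.901) and *Smad3* (0.698, 0.498 to 0.969) were lower in these glia at E12.5. At E11.5 the ratios of these 4 were 1.11 (0.827 to 1.49), 0.963 (0.822 to 1.13), 1.01 (0.951 to 1.08) and 1.40 (0.931 to 2.12), none apart from 1 beyond counting error, and *Smad4* (0.689, 0.480 to 0.985) and *Tgfbr3* (0.721, 0.524 to 0.987) were lower. The 2 sorts of glia had median depths of 13454 and 10901 UMIs at E11.5 and 5767 and 6014 at E12.5. The part of depth in these ratios was not tested.

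Glia with 2 or more of 6 cycling genes, 287 of 343 in the E11.5 library and 594 of 1113 in the other, had less *Tgfbr3* than other glia, with ratios of 0.465 (0.312 to 0.715) and 0.801 (0.678 to 0.948). They were also deeper, with a median of 13071 against 5311 UMIs at E11.5 and 7340 against 4769 at E12.5. Across the 6 glia-like clusters of each stage *Tgfbr3* ran from 11.499 to 75.8 CPM at E11.5 and from 22.0 to 159 CPM at E12.5. *Id3* ran from 382 to 1017 CPM and from 634 to 1237 CPM, so every glia-like cluster lay above the level of neurons. *Tgfb2* at E11.5 ran from 7.74 to 59.6 CPM. Its highest value, and the highest *Id1* (146 CPM) and lowest *Id3* (382 CPM) at that stage, fell in 1 cluster of 71 cells with the Notch ligand *Dll1* among its 10 leading genes. That cluster had 5 of the 13 glial markers, against 7 to 10 in the other 5 glia-like clusters of E11.5. *Neurog1* had a molecule in 45 of the 71 cells of the *Dll1*-led cluster, so its name as glia-like is in doubt. By the gates, 14 of its cells were glia and 18 progenitors. Over the other 5 glia-like clusters of E11.5, *Tgfb2* ran from 7.74 to 21.2 CPM, *Id1* from 37.1 to 120 CPM and *Id3* from 752 to 1017 CPM.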

How the data were processed

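Single-cell RNA sequencing counts of 2 libraries (E11.5 and E12.5) were used. The deposited values are raw UMI counts per gene and barcode, which the authors made with Cell Ranger 7.0 (7.0.1 in the matrix header) on an mm39 reference. The study's cell filters had not been applied to them. The totals were 10287595 UMIs over 1431 barcodes and 23460243 over 3762. The filters of the study's methods were applied: over 10% mitochondrial UMIs (179 and 66 cells), under 2000 (E11.5) or 1000 (E12.5) UMIs (412 and 133), and a Scrublet score of 0.2 or more (7 and 67, scanpy 1.11.5). Each library was clustered alone (3000 variable genes without the 38 pathway genes, 30 components, 15 neighbours, Leiden resolution 1; igraph 0.11.9, scikit-learn 1.9.0). Clusters were named from marker lists.

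Cells without *Sox10*, *Neurog1* or *Isl1* (49 and 377), and those with *Sox10* and *Isl1* (39 and 198), stayed out of the comparisons. Counts were summed over the cells of a class, since cells are not replicates, and no test was made. Sums have exact Poisson intervals, shares Clopper-Pearson intervals and CPM ratios exact conditional intervals (scipy 1.17.1, 95%). Ratios and intervals were checked on simulated independent Poisson counts with known changes. Variation between cells was not part of that check. Genes named are those called, the Id genes, the type I and type II receptors and *Smad4*, and up to 3 of the wider pathway in each direction; 1 gene so named is not reported here. The members and lists were chosen with earlier results of these data known. Alternatives varied the gate, classes, cell filters, depth, scaling, gene filter and fold. Upstream sequences are from RefSeq (GRCm38.p6).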

Additional observations from a re-analysis of the deposited data

Results flagged for a closer look

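*Bmp7* was on opposite sides of the glial level in non-neural cells of the 2 stages. Its CPM ratio to glia was 0.260 at E11.5 (0.094 to 0.577) and 3.30 at E12.5 (2.80 to 3.88). The non-neural cells of E11.5 were all pericyte-like, and at E12.5 269 of the 270 *Bmp7* UMIs in the class were in mesenchymal-like cells and 1 was in pericyte-like cells. The difference between the stages was not tested, with 1 library each.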

How the results depend on the processing

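No paired analysis was possible because each stage has 1 library and no replicate. The counts of pathway genes called in the 8 comparisons moved by more than 1.5 times as follows. The cause was not tested except where the setting, by its construction, tests fewer genes, another fold or overlapping classes. For glia between stages (2 called), a gate of 2 UMIs gave 4, a minimum of 5000 UMIs 1 (*Smad6*, with neither *Tgfb3* nor *Tgfbr3* called), thinning 1, division by the median ratio 1, a 1.5-fold limit 4 and a 3-fold limit 0. For neurons between stages (2 called), the values were 1 with a gate of 2 UMIs (*Id3*, in the opposite direction), 0 with whole clusters, 1 with 5000 UMIs, 1 with 30 UMIs per gene, 5 at 1.5-fold and 0 at 3-fold. Progenitors at E11.5 (2 called) gave 0 with whole clusters, 1 without the doublet filter, 1 with 5000 UMIs, 0 when thinned, 4 and 0 with 3 and 30 UMIs per gene, 5 at 1.5-fold and 0 at 3-fold. With whole clusters the progenitors kept their gate, and 76 of the 77 at E11.5 lay in glia-like clusters. They were thus set against sums that held their own cells. Progenitors at E12.5 (3 called) gave 5 with the mean over cells and 6 at 1.5-fold. Neurons against glia gave 3 when thinned, 3 with 30 UMIs per gene and 5 at 3-fold at E11.5 (10 called), and 11 at 3-fold at E12.5 (17 called). Non-neural cells at E11.5 (5 called) gave 1 when thinned, 11 and 2 with 3 and 30 UMIs per gene and 13 at 1.5-fold.

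The E12.5-to-E11.5 ratio of *Id3* in neurons, 0.438, was reversed to 3.36 with a gate of 2 UMIs and 1.49 with whole clusters. The ratio of *Tgfb2* in progenitors against glia at E11.5, 2.19, was reversed to 0.742 when thinned. That value has no interval, and thinning left enough UMIs to test 4 of the pathway genes there. Added after seeing the data were the fits without the shallow E11.5 glia-like cluster and with gate and cluster both required, which each called 0 genes in neurons between stages, the latter with *Id3* at 2.78. Also added was the fit without the *Dll1*-led cluster of E11.5, where progenitors gave 1 (*Acvr1*, with neither *Tgfb2* nor *Tgfbr3* called). Against glia at E11.5, neurons had *Id3* ratios from 0.00984 (a gate of 2 UMIs) to 0.245 (mean over cells), beside 0.140, and *Bmp7* from 0.0424 to 0.449 under the same settings, beside 0.264. When thinned, *Smad1* in neurons at E11.5 (1.30) and *Bmpr1b* (0.825) and *Acvr1b* (1.34) in neurons at E12.5 were no longer past 2-fold. Thinned sums hold fewer UMIs, and these ratios have no interval. With whole clusters *Tgfbr3* (0.566) and *Acvr2b* (1.91) in neurons and *Tgfb2* in non-neural cells (1.37) at E11.5 were not past 2-fold either. Also short of 2-fold in neurons at E12.5 were *Smad6* (0.557 with whole clusters) and *Tgfb2* (1.78 with 5000 UMIs, 1.99 with a gate of 2 UMIs). With the mean over cells, so were *Bmp1* (1.79) and *Smad1* (1.98) at E11.5 and *Acvr1b* (1.81), *Smad5* (0.509) and *Smad6* (0.543) at E12.5. *Tgfb2* in non-neural cells at E11.5 was 1.77 without the doublet filter, 1.82 with 5000 UMIs and 1.97 with the mean over cells. Leaving out the 2 cells rich in globin or setting 2000 UMIs in both libraries moved none of the named ratios or counts. Depth limits the smaller classes: 60 neurons and 61 non-neural cells at E11.5 let 18 and 20 of the 38 genes be tested.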

Other observations

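Cells outside the comparisons held intermediate to glial levels of the Id genes. Cells with both *Sox10* and *Isl1* (39 at E11.5 and 198 at E12.5) had *Id3* at 536 CPM (469 to 611) and 637 CPM (597 to 680), and *Id2* at 89.0 CPM (63 to 122) and 148 CPM (129 to 169), between the values of neurons and glia. *Smad1* stood at 82.0 CPM (57.1 to 114) and 87.0 CPM (72.6 to 104) in them, again between the 2 classes. Cells with none of the 3 gating genes (49 and 377) had a lower median depth, 3191 and 4481 UMIs, and *Id3* at 830 CPM (721 to 949) and 866 CPM (823 to 912).

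The 21 glia of E12.5 outside glia-like clusters, 18 of them in the unnamed *Dll1*-led cluster, had *Id3* at 368 CPM. The 1092 glia inside glia-like clusters stood higher, at 957 CPM. Myeloid-like cells at E12.5 had 0 UMIs of *Id1* and 9 of *Id3* (30.3 CPM, 13.9 to 57.6), against 657 CPM (610 to 707) in mesenchymal-like cells and 771 CPM (668 to 886) in pericyte-like cells.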
